A study of Mus musculus with 4 samples.

Results

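MicroRNA gene loci are the places in the mouse genome from which the hairpin precursors of microRNAs (miRNAs) are transcribed. They were taken as all genes of the miRNA type in the RefSeq gene table of GRCm38.p6 on chromosomes 1 to 19, X and Y, which gave 1228 of the 49939 gene entries, and each was given a window of 1 kb on each side. All 4 libraries came from bone marrow haematopoietic stem cells, and all of the mice carried wild-type Ppp2ca. They were made by CUT&Tag, in which an antibody steers a transposase to cut and tag the DNA around its target, with 2 libraries for an antibody to PPP2CA, the catalytic subunit of the phosphatase PP2A, and 2 for control immunoglobulin G (IgG). The study set out to map the sites that PPP2CA occupies. The strain, age and sex of the mice are not given in the labels, nor is it said whether the libraries of an antibody came from separate animals.

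A miRNA gene is transcribed by RNA polymerase II into a long primary transcript, either from a promoter of its own or as part of the intron or exon of a host gene. Drosha and its partner DGCR8 cut the hairpin out of that transcript in the nucleus, Dicer trims it in the cytoplasm, and an Argonaute protein loads 1 strand. Bases 2 to 8 of that strand, the seed, pair with target messenger RNAs and lower their output. In blood cells miRNAs such as miR-142, miR-223 and miR-155 take part in differentiation and immune function.

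The deposited lists held 16811 and 17686 peaks for PPP2CA 1 and 2 and 561 and 310 peaks for IgG 1 and 2. The height of a peak is given here as the number of fragments at its summit, recovered from the deposited fold and p of the peak, with the fold itself (summit over local background) being the authors' value. The depth differed by antibody: a typical PPP2CA summit held 18 fragments and a typical IgG summit 4 (medians), and PPP2CA backgrounds exceeded IgG backgrounds 9.34 to 9.61 times. At summits that both PPP2CA libraries share, the libraries differed by less than sampling noise, with a chi-square over degrees of freedom of 0.76 at 6794 pairs of summits within 100 bp of each other, and they were counted as 1 sample, with no mean or SD given. Those pairs are places called in both libraries, and the 9140 of 21771 merged regions held by 1 library only are not among them. Permuting the antibody labels of 2 against 2 libraries gives a smallest p of 1 in 3, so no such exact test was run, and intervals are exact 95% intervals that cover counting error only. Of the 8 stem cell marker genes that were checked, Kit had a PPP2CA region within 1 kb of a gene boundary (38 and 46 fragments) and the other 7 did not, while the T cell gene Cd3d and the erythroid gene Klf1 had one. A peak is not expression, so this does not settle the labelled cell type, and the specificity of the antibody was not tested.

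A window was called when a PPP2CA region overlapped it by at least 1 bp, the region being held by a peak of both PPP2CA libraries and touched by no peak of either IgG library. The named blood miRNA genes with such a region were Mir142, Mir191, Mir425, Mir132, Mir212, Mir210, Mir33, Mir17 and Mirlet7i, and Mir484 was among the best-ranked ones outside a host. Their mature sequences, from RefSeq on GRCm38.p6, are shown 5′ to 3′ with the seed in capitals because they identify the products of the marked loci and show which of them share a seed.
mmu-miR-142a-3p: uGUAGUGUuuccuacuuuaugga
mmu-miR-142a-5p: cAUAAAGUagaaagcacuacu
mmu-miR-191-5p: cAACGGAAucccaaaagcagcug
mmu-miR-425-5p: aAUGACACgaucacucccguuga
mmu-miR-132-3p: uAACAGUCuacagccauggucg
mmu-miR-212-3p: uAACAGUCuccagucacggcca
mmu-miR-210-3p: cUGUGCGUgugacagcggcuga
mmu-miR-33-5p: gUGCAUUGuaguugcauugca
mmu-miR-17-5p: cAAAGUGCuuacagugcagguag
mmu-let-7i-5p: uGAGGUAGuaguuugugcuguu
mmu-miR-484: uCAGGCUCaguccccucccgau
The miR-132 and miR-212 products have the same seed, AACAGUC, and both lie under 1 PPP2CA region. The let-7i seed, GAGGUAG, occurs in 13 miRNA genes of the table, of which Mirlet7i was the 1 with a region, and the miR-17 seed, AAAGUGC, occurs in 7, of which Mir17 was the 1 with a region. These counts are too small to set apart from the 8.88% of all miRNA windows that were called. Over the 97 called genes with a mature sequence there were 141 distinct seeds, and 6 of them were held by more than 1 called gene.

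PPP2CA regions lay in a minority of the miRNA windows. Of the 1228 windows, 109 were called (8.88%, 7.34 to 10.6), against 1.47% of all genome tiles of 2080 bp, the length of a typical window. The 109 windows held 102 distinct regions, since 7 regions each served a pair of neighbouring or overlapping miRNA genes. Counting overlapping windows as 1 locus gave 102 of 1000 loci (10.2%, 8.39 to 12.2). The single libraries gave nearly the same picture. PPP2CA 1 had a peak in 126 windows (10.3%, tiles 1.82%) and PPP2CA 2 in 123 (10.0%, tiles 1.94%), and 35 windows had a peak of 1 of them and not of the other.

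Control peaks were almost absent from the miRNA windows. IgG 1 had a peak in 1 window (0.0814%, tiles 0.0521%) and IgG 2 in 0 of 1228 (tiles 0.0298%), which allows a share of up to 0.244% by 3 counts of the total and 0.3% by the exact interval. The 1 window was that of Mir7238, 190 bp inside the boundary of its host Ankrd10, where the IgG 1 summit held 7 fragments and the PPP2CA 1 and 2 summits 166 and 188. The IgG libraries were too shallow to test most weak regions: 56 of the 102 called regions had more than 28.8 fragments in both PPP2CA libraries, the height at which an equal signal would have reached the lowest IgG summit, and 46 did not.

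Position relative to protein-coding genes separated the windows far more than being inside or outside a host. Outside every protein-coding gene, 33 of 397 windows were called (8.31%, 5.79 to 11.5), against 0.919% of tiles centred outside such genes. Inside a protein-coding host, 76 of 831 were called (9.15%, 7.27 to 11.3), against 2.3% of tiles centred inside one. The intervals of these shares overlap almost wholly. Within the hosts, 46 of the 111 miRNA genes that lie within 1 kb of a host boundary were called (41.4%, 32.2 to 51.2), against 22.1% of tiles placed likewise. Of the 720 that lie farther inside, 30 were called (4.17%, 2.83 to 5.89), against 1.44% of tiles. The intervals of the near and the far miRNA genes do not overlap, and each lies above the share of its own tiles.

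**Figure D1:**
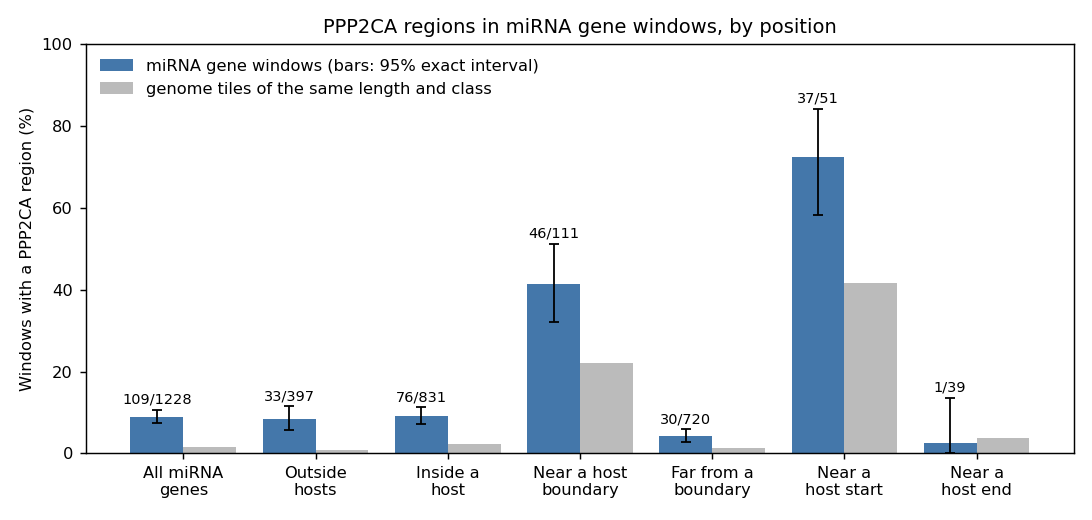
Percentage of miRNA gene windows with a PPP2CA region (blue, with exact 95% intervals and the counts above) and of genome tiles of the same length and class (grey), by position relative to protein-coding genes. The share is 41.4% near a host boundary against 4.17% far from one, and within the near class it is 72.5% at host starts and 2.56% at host ends.

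The near class divided by which end of the host the miRNA gene sits at. The strand of the host was given by the RefSeq promoter table for 90 of the 111. Of the 51 near a host start, 37 were called (72.5%, 58.3 to 84.1), against 41.5% of tiles within 1 kb of a start. Of the 39 near a host end, 1 was called (2.56%, 0.0649 to 13.5), against 3.72% of tiles within 1 kb of an end. That 1 was Mir8116 at the end of Ache, which encodes acetylcholinesterase, and its region of 62 and 64 fragments also reached the boundaries of Ufsp1 and Srrt. Outside the hosts the same contrast appeared in smaller numbers, with 12 of 13 called within 1 kb of a protein-coding start and 1 of 13 within 1 kb of an end.

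The host boundary itself was marked for 396 of the 668 distinct hosts (59.3%, 55.4 to 63.0), against 39.5% of the 21775 protein-coding genes. Among near miRNA genes, 46 of the 71 with a marked host were called and 0 of the 40 with an unmarked one, a relation that the overlap of the 2 windows largely fixes. Among far miRNA genes, 20 of 359 with a marked host (5.57%) and 10 of 361 with an unmarked host (2.77%) were called. The overlap enters here too. For 16 of the 30 far calls the called region itself reached a boundary of the host, and so also marked that host. The far shares therefore cannot show whether a marked host goes with calls away from its boundary. Of the 14 miRNA genes near a host start without a call, 13 had no PPP2CA region at the host boundary without an IgG peak, among them Mir152 in Copz2, Mir34c in Btg4 and Mir301b in 2610318N02Rik, and the last is Mir7238.

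The share was highest next to a gene boundary on both sides of it. Inside hosts it fell with each bin of distance. Inside hosts it was 41.4% at 0 to 1 kb, 22.4% (15 of 67) at 1 to 2 kb, 4.96% (7 of 141) at 2 to 5 kb, 2.94% (4 of 136) at 5 to 10 kb, 1.38% (3 of 218) at 10 to 50 kb and 0.633% (1 of 158) beyond 50 kb. The tiles inside genes fell in the same order, from 22.1% and 15.7% to 2.46%, 1.49%, 0.932% and 0.295%, and from 1 to 2 kb on the interval of the miRNA genes held the tile share in every bin, although the far class as a whole lay above its tiles. Outside genes 15 of 30 were called within 1 kb, against 17.7% of tiles, and 21.7% (5 of 23) at 1 to 2 kb, against 7.12%. Farther out it did not fall steadily: it was 8.11% (3 of 37) at 2 to 5 kb, 21.1% (4 of 19) at 5 to 10 kb and 4.42% (5 of 113) at 10 to 50 kb, against tile shares of 1.17%, 1.12% and 0.684%. The bin of 5 to 10 kb holds 19 miRNA genes, and its interval of 6.05 to 45.6% overlaps those of both neighbours. As in the first bins, the interval lay above the tiles in each of these bins. Beyond 50 kb 1 of 175 was called (0.571%, tiles 0.118%). The 1 kb limit of the near class fell in a stretch with few calls: the 5 miRNA genes just inside it (958 to 994 bp) had none, and of the 5 just outside it (1008 to 1044 bp) Mir7045 in Chd4 was called.

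**Figure D2:**
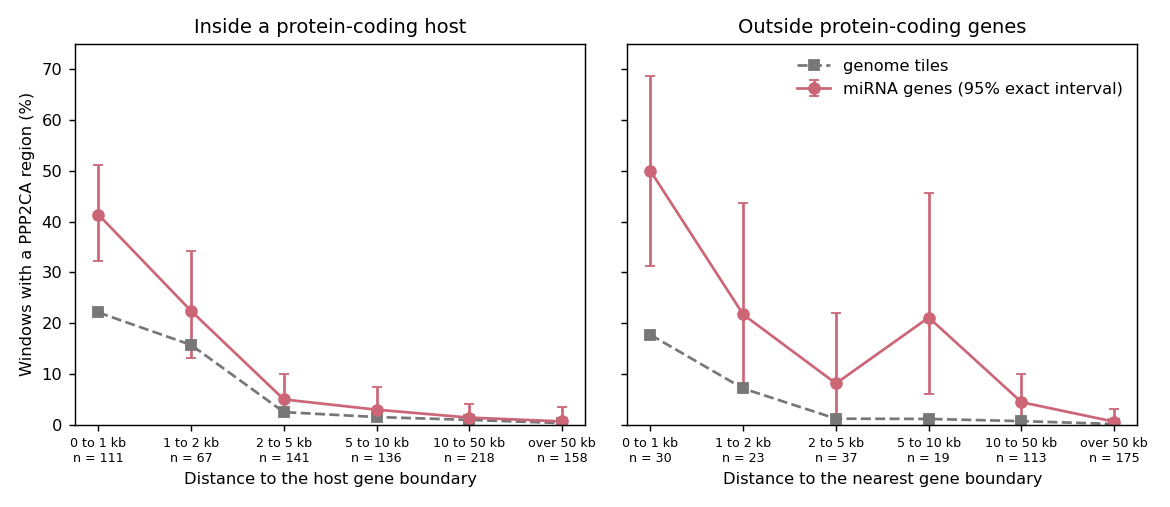
Percentage of windows with a PPP2CA region by distance to the host boundary (left) or to the nearest protein-coding boundary (right), with the number of miRNA genes per bin. Red points are miRNA genes with exact 95% intervals and grey squares genome tiles; inside hosts both fall with distance, and outside genes the miRNA points rise again to 21.1% at 5 to 10 kb and stay above the tiles out to 50 kb.

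Among the hosted miRNA genes, several of the best-ranked regions lay at a boundary of the host. Mir1894 lies 1377 bp inside Ppp1r10, which encodes the PP1 regulatory subunit PNUTS, and its region held 355 and 338 fragments (PPP2CA 1 and 2; fold 10.5 and 8.77). The summits lay 1245 and 1279 bp upstream of the hairpin, at the boundary that Ppp1r10 shares with Mrps18b. Mir207, 449 bp inside Dnaja1, which encodes an Hsp40 co-chaperone, lay wholly within a region of 227 and 257 fragments. Mir12191 in Fam53c had 192 and 221 fragments, Mir1938 in Ifrd1 186 and 182, and Mir707 in Akt1s1, which encodes the mTORC1 inhibitor PRAS40, 175 and 194. All 5 regions were tall in both libraries, and their hosts were marked at the boundary. Further near members of the top ranks were Mir5130 in Kctd12 (134 and 167 fragments), Mir8098 in Wdfy2 (111 and 106), Mir762 in Bcl7c (95 and 107) and Mir8114 in Glul, the glutamine synthetase gene (86 and 79).

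Some far miRNA genes were called through a boundary of their host, and others through regions with no protein-coding boundary within 1 kb. The region reached a boundary window of a protein-coding gene for 45 of 46 near members, 17 of 30 far members and 18 of 33 outside members. Mir6992 in Stx5a (95 and 109 fragments), Mir7647 in Diablo, which encodes the apoptosis mediator Smac (99 and 96), Mir7653 in Tlcd1 (124 and 162) and Mir1931 in Cdk17 (82 and 99) were of the first kind. Their summits lay upstream of the hairpins, by 740 to 2269 bp. Mir7655 lies 2686 bp inside Mllt10, which encodes a cofactor of the histone methyltransferase DOT1L. Its region of 146 and 171 fragments (fold 13.6 and 13.7) had its summit 1012 bp upstream of the hairpin in both libraries. The region reached no gene boundary within 1 kb, but it lies on the side of the host start, the nearer end of Mllt10. Mir1893, 25462 bp inside Epc1, a subunit gene of the NuA4 acetyltransferase, lay wholly within a region of 100 and 130 fragments.

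Outside the hosts the best-ranked window was that of Mir5627, 245 bp from Dnajb9, which encodes a co-chaperone of the endoplasmic reticulum (142 and 154 fragments). Mir5615-1 and Mir5615-2, which overlap on opposite strands near Map2k2, the MEK2 kinase gene, share a region of 138 and 154 fragments. Mir8102, 193 bp from Pip4k2b, lay within a region of 120 and 109 fragments with the highest fold of the outside class in each library (13.7 and 13.0). Mir2861 and Mir3960 share a region of 125 and 164 fragments at Cdk9, the kinase that releases paused polymerase. Mir7671 differed from these: it lies 6360 bp from the nearest protein-coding boundary, that of Irf1, an interferon regulatory factor gene, and sat inside a region of 105 and 124 fragments that reached no boundary.

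Over all 102 regions the fragments at the summit had a median of 32 in PPP2CA 1 (6 to 355) and 37.5 in PPP2CA 2 (5 to 338). All 12438 PPP2CA regions of this kind had medians of 23 and 25, and the folds were alike, at 6.26 and 6.53 against 6.3 and 6.27. The classes had similar heights. Over the called miRNA genes, where a shared region counts for each of its genes, the medians were 39 and 41 fragments outside hosts. They were 30.5 and 39 near a host boundary and 32 and 36.5 far from one. The ratio of PPP2CA 2 to PPP2CA 1 had a median of 1.14, and 91 of the 102 regions differed by less than 1.5 times. The widest gaps were at low heights, as at Mir6538 in Rnf144a with 8 and 21 fragments.

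**Figure D3:**
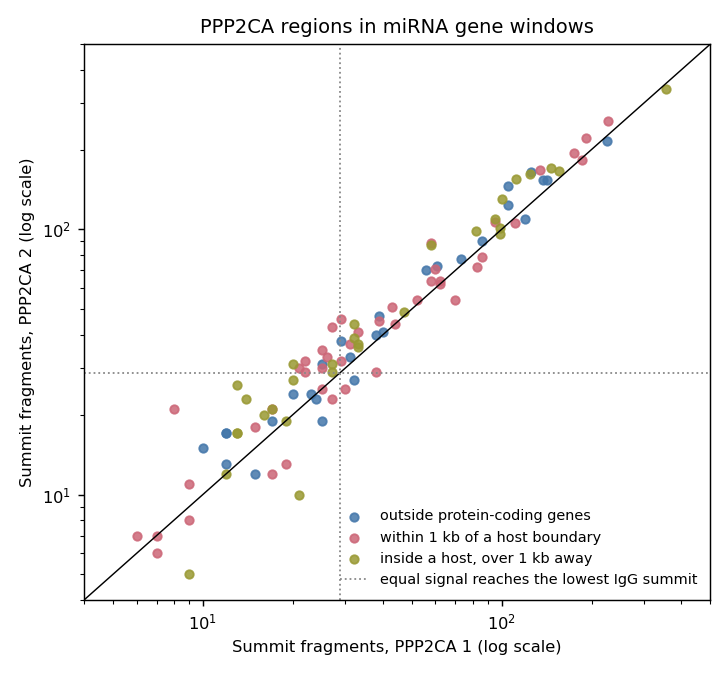
Summit fragments of each of the 102 distinct PPP2CA regions in miRNA windows, PPP2CA 1 against PPP2CA 2 on log axes, coloured by class, with the line of equality. The dotted lines mark 28.8 fragments, and 56 regions lie above both; the points of the 3 classes overlap over the whole range.

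Most marked hairpins lay inside or just downstream of the summit. The hairpin touched its region in 69 of the 109 called windows, 65 of them wholly inside it, and lay beside it in 40. Among near members 40 of 46 touched it, among outside members 19 of 33 and among far members 10 of 30. The distance from summit to hairpin centre had a median of 402 bp in PPP2CA 1 and 469 bp in PPP2CA 2. Of the 98 called miRNA genes with a strand in the sequence table, the summit lay upstream of the hairpin in 68 and 75 and downstream in 30 and 23.

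**Figure D4:**
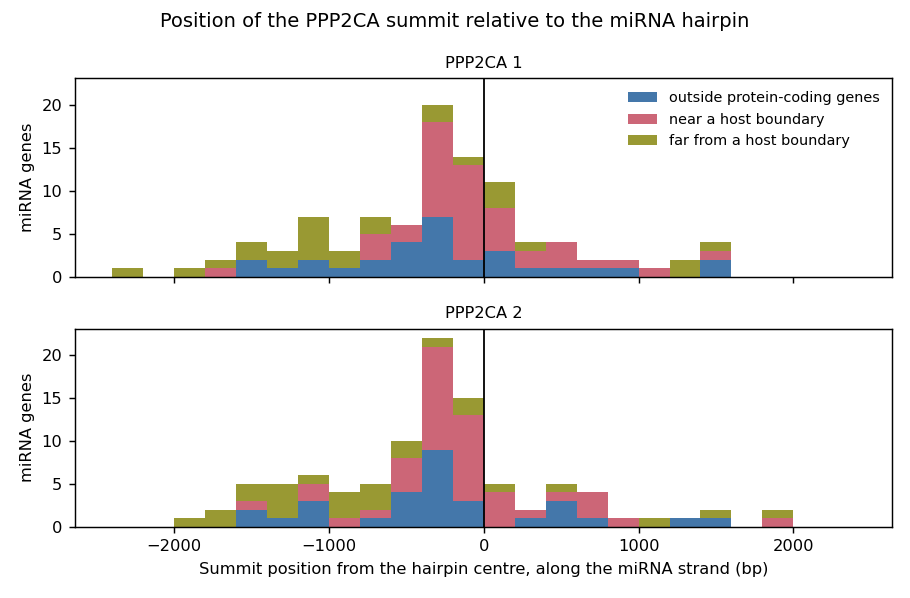
Number of called miRNA genes by the position of the PPP2CA summit relative to the hairpin centre, in bins of 200 bp along the miRNA strand, for PPP2CA 1 (top) and PPP2CA 2 (bottom). Upstream positions (negative values) hold 68 and 75 of the 98 genes with a known strand, and the near class is gathered close to the hairpin.

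Of the 102 regions, 64 (62.7%) touched a RefSeq promoter (250 bases before to 50 after a transcription start), against 54.2% of all 12438 regions. Shown here are the 250 bases before the start of Ndufaf3, at the region shared by Mir191 and Mir425, of Marf1, at the region of Mir484, and of Nsrp1, at the region of Mir423, because in each of them a promoter and a miRNA hairpin lie under or beside the same region. They are on the minus strand of GRCm38.p6, at chr9:108567437-108567686, chr16:14159275-14159524 and chr11:77078438-77078687, and are written 5′ to 3′ with matches on either strand in capitals, to GGGCGG (the GC box), to CCAAT (the CCAAT box) or to CCGGAAG (the core of an ETS site).
Ndufaf3: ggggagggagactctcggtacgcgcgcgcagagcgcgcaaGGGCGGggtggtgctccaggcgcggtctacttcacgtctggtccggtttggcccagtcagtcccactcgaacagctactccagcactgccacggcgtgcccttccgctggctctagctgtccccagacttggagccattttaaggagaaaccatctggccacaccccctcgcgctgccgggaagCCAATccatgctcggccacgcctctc
Marf1: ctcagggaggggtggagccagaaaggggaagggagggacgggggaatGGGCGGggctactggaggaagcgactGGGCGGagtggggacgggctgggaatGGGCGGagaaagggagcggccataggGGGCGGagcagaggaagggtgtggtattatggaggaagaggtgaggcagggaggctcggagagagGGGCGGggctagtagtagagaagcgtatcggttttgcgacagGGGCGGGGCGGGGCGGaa
Nsrp1: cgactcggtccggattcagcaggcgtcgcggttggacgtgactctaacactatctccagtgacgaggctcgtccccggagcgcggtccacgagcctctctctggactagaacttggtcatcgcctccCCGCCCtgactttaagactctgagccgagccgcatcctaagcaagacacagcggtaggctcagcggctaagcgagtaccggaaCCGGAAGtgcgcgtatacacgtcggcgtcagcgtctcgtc
The Marf1 stretch holds 8 GC boxes, some of which overlap each other, the Ndufaf3 stretch 1 GC box and 1 CCAAT box, and the Nsrp1 stretch 1 GC box and 1 ETS match. Over the full promoters, the GC box occurred in 87.1% of the 93 promoters under called regions, in 71.3% of the 9226 under any PPP2CA region and in 35.7% of all 32851. The ETS match occurred in 21.5%, 21.2% and 8.86%, the CCAAT box in 41.9%, 38.4% and 37.4%, and TATAAA (the TATA box) in 6.45%, 5.29% and 13.6%. Of the other motifs searched, the cAMP response element (TGACGTCA) occurred in 1.08%, 3.95% and 1.79%, and the NRF1 site in 3.23%, 2.56% and 0.971%. The promoters under called regions had a median GC content of 64.3%, against 63.0% under any PPP2CA region and 52.7% in all, and a letter match is not a bound site.

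A minority of the miRNA genes that are known from blood cells had a region within 1 kb, as did a minority of all miRNA windows. For each of the blood lists given below, the interval of the share held the share of all windows, so no depletion was seen. Mir142 and the antisense Mir142b share a region at chr11:87754945-87755996 with 225 and 216 fragments. Mir142 is expressed across blood lineages and little elsewhere. The region ends 868 bp upstream of the Mir142 hairpin, its summits lie 1398 and 1344 bp upstream, and its fold was low (4.36 and 3.67) for its height. The region reached no protein-coding boundary. The nearest, that of Tspoap1, is on the other side of the hairpin, 1267 bp away, next to a further PPP2CA peak outside the window.

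Mir191 and Mir425, which lie together inside Dalrd3, share a region at chr9:108566799-108568479 with 156 and 166 fragments (fold 6.29 and 5.87). The region reaches the boundaries of both Dalrd3 and its divergent neighbour Ndufaf3, and holds the Mir191 hairpin (chr9:108568319-108568392) but not that of Mir425. Mir132 and Mir212 are a pair, with Mir132 at chr11:75173682-75173747, under a region of 38 and 40 fragments, 2196 bp and more from the nearest boundary, that of Ovca2. Mir210, the miRNA gene best known for its induction by low oxygen, had 25 and 31 fragments, with summits 552 and 384 bp upstream of the hairpin. Mir33 lies in Srebf2, the gene of a sterol-regulated transcription factor, 7189 bp from a boundary. Its region held 27 and 29 fragments and covers the hairpin. Mirlet7i, 6336 bp from Mon2, had 31 and 33 fragments.

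Mir17 heads the polycistronic cluster with Mir18, Mir19a, Mir20a, Mir19b-1 and Mir92-1, whose products promote cell growth. Its region held 17 and 19 fragments, with summits 1590 and 1498 bp upstream. Its call rests on the outer edge of the window, which the PPP2CA 2 peak reaches and the PPP2CA 1 peak does not, and without PPP2CA 2 no member of the Mir17 family clusters had a region. In the same way the windows of Mir1967, Mir7050 and Mir1900 were reached by PPP2CA 1 alone, and the other 105 called windows held peaks of both libraries.

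**Figure D5:**
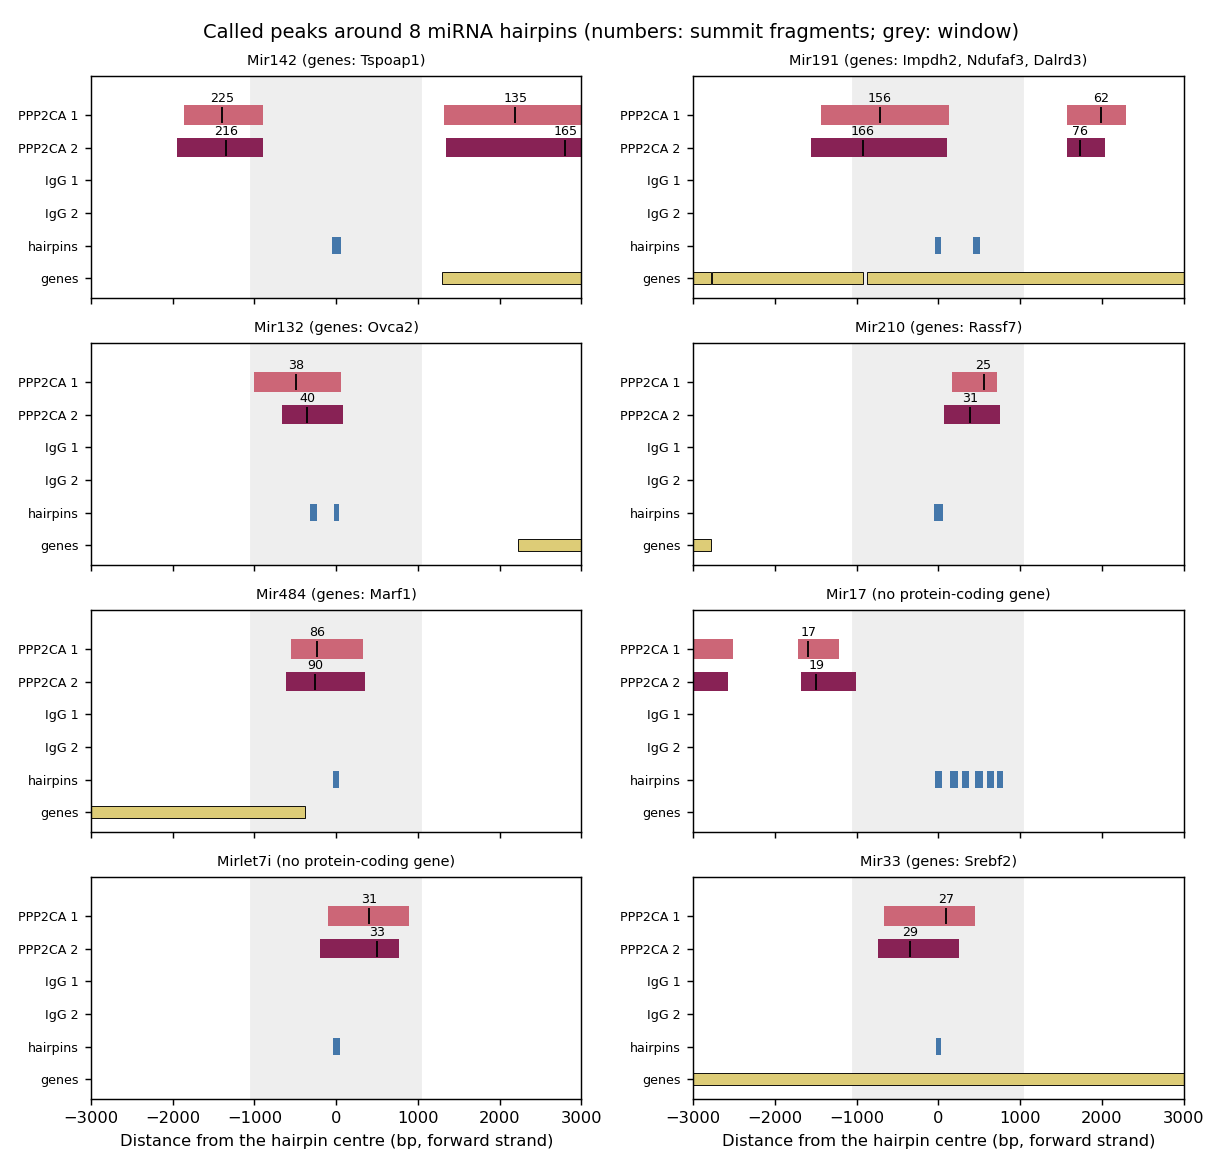
Called peaks of the 4 libraries, miRNA hairpins and protein-coding genes within 3000 bp of 8 hairpins, as distance from the hairpin centre on the forward strand; numbers are summit fragments and the grey band is the window. PPP2CA 1 and 2 peaks lie at like positions in each panel, and no IgG peak is drawn.

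By list, 3 of 25 stem and progenitor cell miRNA genes were called (Mir132, Mir212 and Mir33), 2 of 13 myeloid ones (Mir142 and Mir142b), 3 of 15 erythroid and megakaryocyte ones (Mir191, Mir425 and Mir210), 0 of 14 lymphoid ones and 1 of 15 in the Mir17 family clusters. The exact intervals of these shares were 2.55 to 31.2%, 1.92 to 45.4%, 4.33 to 48.1%, 0 to 23.2% and 0.169 to 31.9%, and each of them holds the 8.88% of all windows. Among 42 miRNA genes of other tissues 1 was called (2.38%, 0.0603 to 12.6), the neuronal Mir124a-3, with 12 and 13 fragments. The lists are too short for these shares to separate blood from other tissues.

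Several blood miRNA genes had a tall region just beyond the window. Mir22, a miRNA gene studied in blood stem cells, lies 1221 bp from a region of 154 and 197 fragments at the boundary of its host transcript Mir22hg, the 1 of 14 Mir host noncoding genes with a marked boundary, against 12.6% of all long noncoding RNA genes. Mir21a, 1303 bp from a region of 65 and 78 fragments inside Vmp1, and the cluster of Mir24-2, Mir27a and Mir23a, 1166 to 1495 bp from a region of 43 and 56 fragments at Zswim4, were also not called. The myeloid gene Mir223 lay 2654 bp from a region of 26 and 29 fragments, the lymphoid gene Mir150 2286 bp from one of 75 and 88, and Mir155 10193 bp from one of 28 and 47. With windows of 2 kb, 6 of the 13 myeloid miRNA genes were called (46.2%), against 12.6% of all windows, and with windows of 500 bp 0 of 13, against 7.08%. With the 1 kb windows used here it was 2 of 13 (15.4%, 1.92 to 45.4), an interval that holds the 8.88% of all windows. The myeloid share thus depends on the window length, and an excess in myeloid genes was not tested. The myeloid genes are not independent, since Mir142 and Mir142b share a region, as do Mir23a, Mir24-2 and Mir27a.

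The large miRNA clusters were without calls, and for the cluster in Sfmbt2 the share of tiles placed likewise was also low. None of the 72 miRNA genes inside Sfmbt2 on chromosome 2 was called (0%, 0 to 4.99). They lie more than 50 kb from the boundary of that gene, where 0.295% of tiles were called. The share of all hosted miRNA genes at that distance was 0.633%, with these 72 counted in. None of the 60 in the imprinted cluster of chromosome 12 was called (0%, 0 to 5.96), against 1.47% of all tiles, which were not matched for position. Both clusters are runs of neighbouring genes, so their members are not independent. On the X chromosome 3 of 92 were called (3.26%, 0.678 to 9.23): Mir5132 and Mir718 share a region of 22 and 32 fragments at the start of Irak1, a kinase gene of Toll-like receptor signalling, and Mir7093 lies beside a region of 13 and 17 fragments at Armcx3 and Armcx6.

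The genes that make and use miRNAs were often marked at a boundary. Of 36 biogenesis and effector genes, 24 had a PPP2CA region within 1 kb of a boundary (66.7%, 49.0 to 81.4), against 39.5% of all protein-coding genes. A mark can lie at either end of a gene and can also be in reach of a neighbour, and starts and ends were not told apart here. For the nuclear step, Drosha had 13 and 11 fragments, Dgcr8 33 and 31, and the helicase gene Ddx5, a Drosha cofactor, 336 and 379. The Ddx5 region (chr11:106778805-106780403) lies at the low-coordinate boundary of that gene. For export and dicing, Xpo5 had 28 and 23 and Dicer1 21 and 23. Among the effectors, Ago1 had 62 and 70, Ago2 44 and 48, and Tnrc6b, which encodes a GW182 scaffold of silencing, 158 and 193. The rest of the 5 best-ranked were Tut7, a terminal uridylyltransferase gene (189 and 203), Khsrp, which encodes a protein that aids let-7 processing (126 and 136), and Srsf3, a splicing factor gene (136 and 141). Next in rank came Ddx17, the helicase gene related to Ddx5 (119 and 138), Cnot1, the scaffold gene of the deadenylase complex (78 and 88), and Xrn2, an exonuclease gene (78 and 104). Ago3, Ago4, Tnrc6a, Tnrc6c, Tarbp2, Lin28a, Lin28b, Dis3l2, Hnrnpa1, Adar, Cnot7 and Pan3 had none.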

How the data were processed

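CUT&Tag peaks of 4 libraries were used, 2 with a PPP2CA antibody and 2 with IgG, grouped by sample title. The authors deposited 1 peak list per library, called separately, with a fold ratio over local background, −log10 p and −log10 q per summit, and a score that is 10 times the −log10 q for 99.99% or more of the deposited peaks. Per the submitters' processing notes the tools were MACS2, BWA, Trimmomatic, HOMER, ChIPseeker and deepTools, and the builds mm10 and GRCm38, with no role or version given. The use of IgG as a calling control and the total reads are not given in the sources used here. The fold and −log10 p of each summit were solved together, under a Poisson tail, for its fragments and local background, and 100% of the peaks gave a whole number to within 0.0001 relative error. The peaks with the lowest background of each list gave its genome-wide background, 0.784 and 0.8 fragments for PPP2CA and 0.0839 and 0.0833 for IgG.

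Peaks of both PPP2CA libraries that share 1 bp were merged into 21771 regions, of which 12631 held both libraries and 12438 of those had no IgG peak. Genes, sequences and strands came from RefSeq tables of GRCm38.p6, and 340 entries below 3 Mb were left out. Tiles of 2080 bp over the same chromosomes were classed by their central 80 bp. Shares have exact Clopper-Pearson intervals at 95%, computed with Python 3.11.15, pandas 2.3.3 and SciPy 1.17.1, with no test between classes. PCR copies are not independent, so these intervals cover counting error only. On simulated data 100% of 2500 summits and of 200 planted windows were recovered.

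The miRNA loci, lists and alternatives were chosen with earlier results of these data known. The naming rule took the 25 best called miRNA genes, the 8 best per class, every one with an IgG peak, called list members with up to 3 uncalled ones per list, and the 5 best biogenesis genes, best meaning the worse of both within-library ranks of −log10 q. The split by host start and end, the promoter letters, the seeds, the rule that peaks of both libraries touch the window and further genes (such as Mir423, Mir8116, Mir6538 and Mir7045) were chosen after the values were seen.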

Additional observations from a re-analysis of the deposited data

How the results depend on the processing

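Of 199 alternative shares, 164 lay within the 95% interval of the reported share and 35 outside it. With 500 bp windows, 2 kb windows, at least 20 summit fragments, or both summits in the window, the share of all windows was 7.08%, 12.6%, 6.68% and 6.51%, and that of the far miRNA genes 2.36%, 7.5%, 2.78% and 1.94%. With the last 3 of these the share inside hosts was 13.2%, 6.74% and 6.62%. With near meaning 2 kb or 5 kb the far share was 2.3% or 1.56%, and the near share with 5 kb was 21.3%. Windows with a PPP2CA 1 peak made up 7.98%, 14.7%, 8.22% and 7.0% with 500 bp, 2 kb, a −log10 q of at least 5 and at least 20 fragments, and those with a PPP2CA 2 peak 7.98%, 14.4%, 8.06% and 7.25%. IgG 1 had 0% at a −log10 q of at least 5. The myeloid share was 0% with 500 bp or with both summits in the window and 46.2% with 2 kb. The Mir17 family share was 40.0% with 2 kb and 0% with 500 bp, a −log10 q of at least 5, at least 20 fragments, both summits in the window or peaks of both libraries touching it, and without 1 library it ran from 0% (PPP2CA 2 left out) to 6.67%. The share for other tissues was 0% at a −log10 q of at least 5 or at least 20 fragments. Mir142, Mir142b, Mir1894, Mir1931, Mir5615-1, Mir5615-2, Mir6992 and Mir7647 lost their call with 500 bp. The cause was not tested, apart from the shorter or longer reach of the window itself. IgG depth limits any statement that a region lacks control signal. No paired analysis was possible because the peak lists give no value where no peak was called, so no fit over the libraries could be made and the shares come from no test.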

Other observations

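MiRNA genes were also grouped by the number in their symbol, which follows the order in which miRNAs were registered: 26 of 515 miRNA genes numbered under 1000 were called (5.05%, 3.32 to 7.31), 21 of 178 numbered from 1000 to below 5000 (11.8%, 7.45 to 17.5) and 56 of 476 numbered 5000 or more (11.8%, 9.01 to 15.0). Among far miRNA genes the counts were 3 of 253, 6 of 111 and 19 of 325. The 3 far ones under 1000 were Mir33, Mir425 and Mir378a, of which Mir378a in Ppargc1b had 16 and 20 fragments. These classes were formed after the values were seen. Runs of neighbouring miRNA genes were not taken out of them, such as the 72 inside Sfmbt2 and the 60 of the chromosome 12 cluster, none of them called. Members of a run are not independent, so the intervals are too narrow and a relation to registration order was not tested.

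Hairpins under or beside a PPP2CA region were richer in G and C outside hosts and near a host boundary, with almost no difference far from a boundary. The median GC content was 60.9% in called and 50.9% in uncalled miRNA genes, over the 81.8% and, among the called, 85.3% with a hairpin sequence. It was 67.9% against 56.0% near a host boundary, 58.7% against 47.0% outside hosts, and 52.8% against 52.5% far from a boundary.

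MiRNA genes outside protein-coding genes that lie in a long noncoding RNA gene were called in 2 of 125 cases (1.6%, 0.194 to 5.66), and those in none in 31 of 272 (11.4%, 7.88 to 15.8). These groups were not matched for distance to a protein-coding boundary. Of all outside miRNA genes, 27 of 109 within 10 kb of one were called (24.8%) and 6 of 288 farther away (2.08%). By strand, 53 of 518 miRNA genes on the strand of their host (10.2%) and 9 of 90 on the other strand (10.0%) were called.

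The windows with a peak and no call numbered 33. Among them Mir101c, 296488 bp from the nearest protein-coding boundary, had the tallest PPP2CA 1 summit without a PPP2CA 2 peak (49 fragments), and Mir6919 in Mgat4b the tallest PPP2CA 2 summit without a PPP2CA 1 peak (42 fragments). Both folds were low for the height, at 3.75 and 3.5. The Mir101c peak starts at chr9:3037874, close to the 3 Mb below which entries were left out, and the cause of its height was not tested.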
